A study of Mus musculus with 8 samples.

Results

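The 4 libraries described here hold RNA from brain cells of wild type C57BL/6J mice at postnatal day 8 (P8), out of 8 libraries in the series. They are every library that carries the P8 label, and they are named P8 1 to P8 4 by their replicate number. Whole brains were dissociated with enzymes and by mechanical means, and cells that carry GLAST were pulled out with magnetic beads coupled to the anti-GLAST antibody ASCA-1. The labels call these cells astrocyte precursors. They do not say whether the replicates came from separate animals, litters or pools, so the spread between libraries may be partly technical. All 4 libraries share strain, age, tissue and sort. There is therefore no contrast of conditions among them, and the values below are descriptions without a test.

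GLAST, the product of Slc1a3, is a transporter that takes glutamate out of the extracellular space. Radial glia carry it before birth, and astrocytes carry it afterwards. In the first postnatal weeks of the mouse, astrocytes spread through the brain, begin to clear glutamate, potassium and water, and secrete lipid particles and proteins on which neurons draw. Microglia, endothelial cells, neurons and the oligodendrocyte lineage are their neighbours, and any of them can be carried along in a sort.

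Total counts were 94308235, 70284047, 63131890 and 63695553 in P8 1 to P8 4, and between 18185 and 18666 of the 23284 listed genes had a read in a library. In all, 17409 genes were read in every library and 3704 in none. The unit used for ranks is the deposited RPKM, the read count divided by gene length and by the total count of the library, which allows levels of different genes to be set side by side. Ranks cover the 22515 genes of at least 300 bases. A count of 0 allows a true level of up to 3 counts, between 0.0318 and 0.0475 CPM (the count scaled to the library total), and this limit covers counting error only. No pair of libraries was identical.

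The label was set against marker genes. All 36 markers of the astrocyte list were read at a mean of at least 1 CPM, and their median level was 266 RPKM, beside 2.58 RPKM for all ranked genes. Slc1a3 (chromosome 15, 8584124 to 8660764, minus strand of NCBIM37) stood at 932, 1196, 919 and 884 RPKM, which placed it at rank 26 of all genes. Aqp4, the water channel of astrocyte endfeet, stood at 265, 320, 284 and 327 RPKM, and Gfap, an intermediate filament of astrocytes, at 160, 167, 215 and 201 RPKM. These 3 markers were high in all 4 libraries. Median levels of the other marker lists were 96.6 RPKM for microglia, 50.8 for radial glia, 19.2 for endothelium, 16.2 for oligodendrocyte precursors, 6.97 for neuroblasts and 4.44 for choroid plexus. The lists hold different genes, so these medians do not measure shares of cells, and no unsorted library was used here. In sorted bulk RNA, fewer cells of a type and less RNA per cell cannot be told apart.

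At P8, 13247 genes reached a mean of 1 RPKM, 6636 reached 10, 662 reached 100 and 25 reached 1000. The 100 highest genes held 24.6% of the summed RPKM, between 20.9% and 26.1% by library, and 47 of them encode ribosomal proteins. Apoe, the lipid carrier that astrocytes secrete, ranked first in the whole table (chromosome 7, 20281458 to 20284515, minus strand). It stood at 9366, 8824, 6019 and 9166 RPKM, a mean of 8344 ± 1566 (SD, n = 4). P8 3 was the low library and the other three lay close together. Cst3, which encodes the secreted protease inhibitor cystatin C, followed at 4428 ± 1067 RPKM. Fabp7, the fatty acid binding protein of radial glia and young astrocytes, had 3196 ± 565 RPKM, and Cpe, a carboxypeptidase that processes secreted peptides, had 2987 ± 497 (SD, n = 4 for each). Next came Eef1a1, Sparcl1, Tmsb4x, Ptn, Ppia, Dbi, Psap and Ckb, between 2333 and 1467 RPKM. Sparcl1 is an astrocyte protein that promotes synapse formation, and Dbi binds acyl-CoA and is the source of peptides that act on GABA-A receptors. Of the 15 highest genes, 9 were among the 15 highest in every library.

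**Figure D1:**
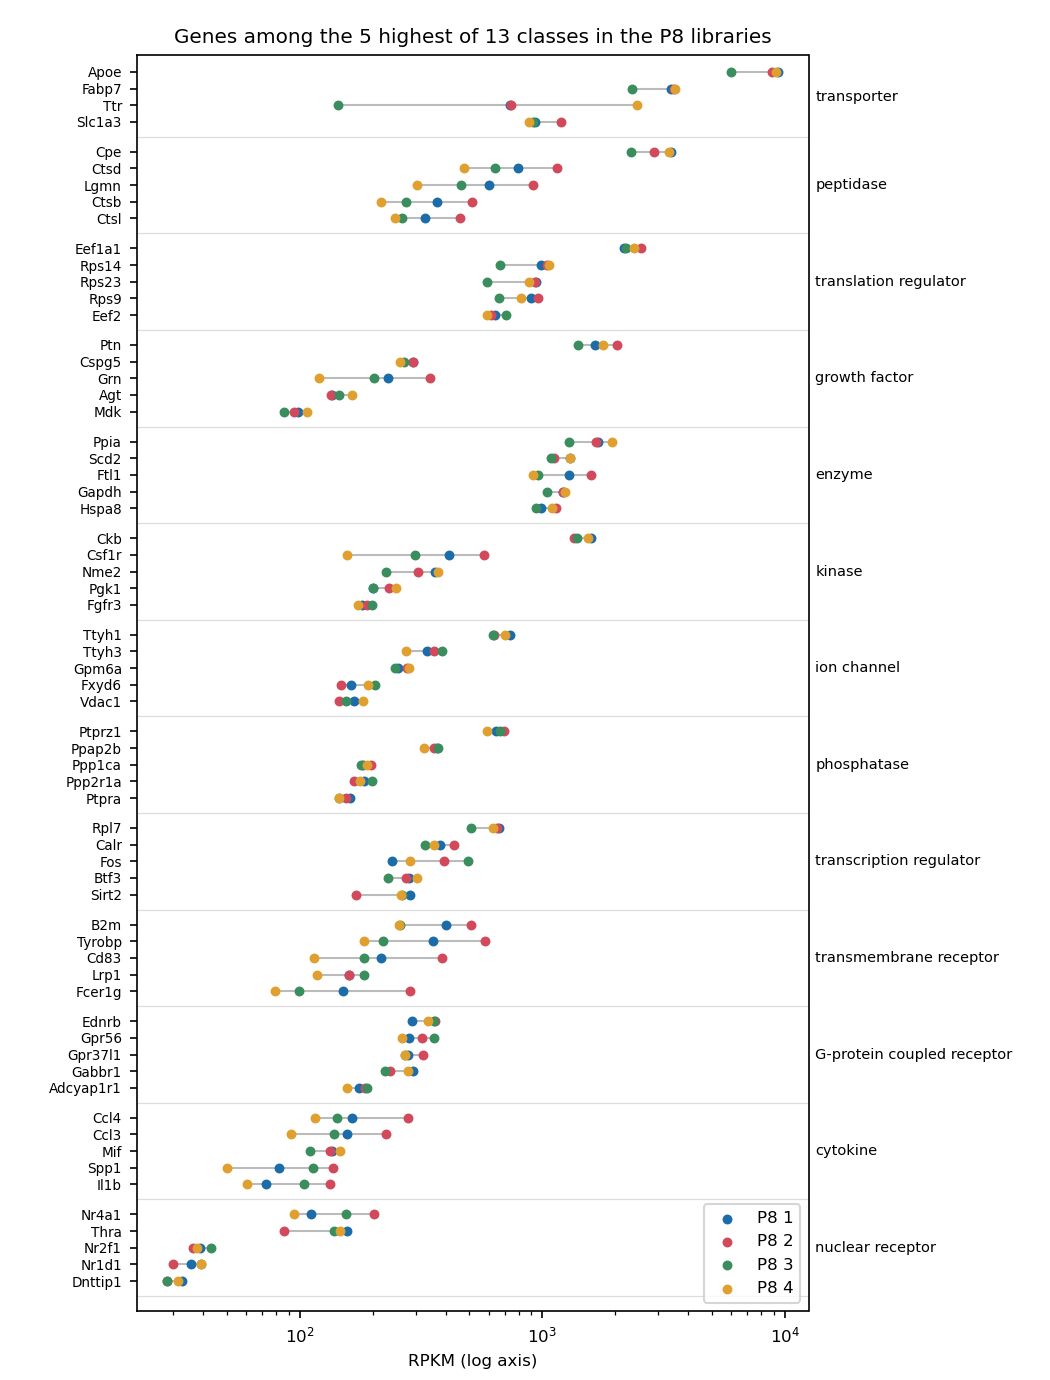
RPKM (log axis) of genes among the 5 highest in 13 classes of the deposited annotation (4 of them for transporters), with 1 point for each P8 library and a grey line over their range. Ttr spreads from 144 to 2446 RPKM, Csf1r, Tyrobp and Cd83 are highest in P8 2 and lowest in P8 4, and Ckb and Ptprz1 lie within narrow ranges.

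The deposited table puts each gene in a functional class, and the order within a class is that of mean RPKM. The classes are broader than gene families, and an RNA may come from any cell type carried along in the sort. The table gives 15 classes, and 1263 genes have none. Neighbours in the order were often too close to tell apart. Among the first 12 ranks of the classes, 54 of 176 neighbouring pairs kept their order in all 4 libraries, and 27 pairs had ranges that did not overlap.

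Among transporters, ranks 1 to 4 were held by Apoe, Fabp7, Ttr and Slc1a3. Slc6a11, the GABA transporter GAT-3, ranked 6 and stood at 932, 783, 978 and 977 RPKM. Its range overlapped with that of Slc1a3, so that the order of this pair is not settled. Ttr, which encodes transthyretin and is a product of the choroid plexus, is described below with its library pattern, since without P8 4 its mean was 541 RPKM in place of 1017. Further down stood Mlc1 at 706 ± 53.3 RPKM, Atp1b2 at 538 ± 27.7 and Slc1a2 (the glutamate transporter GLT-1) at 377 ± 52.0 (SD, n = 4), all astrocyte membrane proteins. Genes with overlapping exons may share reads. The kit does not mark strand, so this includes overlaps on the other strand: Glul with 5830403L16Rik, Col1a1 with Gm17329 and Fn1 with Apol7d. On the same strand, Ctsd overlaps with 6330512M04Rik and Neurod1 with Cerkl.

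Ppia, the peptidyl-prolyl isomerase cyclophilin A, led the enzymes at 1646 ± 273 RPKM (SD, n = 4). It was followed by Scd2, a fatty acid desaturase of brain, at 1303, 1115, 1081 and 1300 RPKM. Ftl1, the ferritin light chain, stood at 1293, 1594, 958 and 916, and overlapped with Scd2, Gapdh and Hspa8. Glul, the glutamine synthetase with which astrocytes convert glutamate, ranked 7 among enzymes at 912, 945, 779 and 861 RPKM. Aldoc, the aldolase of astrocytes, had 861 ± 83.6 RPKM and Fads2, another desaturase, 961 ± 95.8 (SD, n = 4). Lipid desaturation, glycolysis and glutamine synthesis were thus all represented near the top of the class.

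Ckb, the brain creatine kinase, was the highest kinase at 1590, 1347, 1395 and 1536 RPKM. Rank 2 was held by Csf1r, the receptor of microglia for colony stimulating factor 1, at 413, 577, 298 and 157 RPKM. P8 2 was the highest and P8 4 the lowest, and the ranges of Csf1r and Nme2, a nucleoside diphosphate kinase at rank 3, overlapped. Fgfr3, the fibroblast growth factor receptor of astrocytes, ranked 5 at 185 ± 10.5 RPKM (SD, n = 4). Among phosphatases, Ptprz1, a receptor phosphatase of glia that binds the growth factor pleiotrophin, led at 641, 694, 667 and 589 RPKM. Ppap2b, a lipid phosphate phosphatase, followed at 356 ± 21.5 (SD, n = 4), and the ranges of these genes did not overlap. Csf1r shares exon sequence with Hmgxb3 on the other strand.

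Cpe led the peptidases in every library. Ranks 2 to 5 were held by lysosomal proteases, Ctsd, Lgmn, Ctsb and Ctsl, which digest proteins after uptake. Ctsd stood at 794, 1155, 641 and 474 RPKM, and Lgmn, which encodes legumain, at 602, 914, 461 and 305. All 4 proteases were highest in P8 2 and lowest in P8 4, as Csf1r was.

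Among growth factors, Ptn, which encodes pleiotrophin, the ligand of Ptprz1, stood at 1641, 2024, 1403 and 1786 RPKM, far above Cspg5 at 278 ± 15.97 (SD, n = 4). Cspg5 is a membrane proteoglycan of the neuregulin kind. Grn, the progranulin gene, had 232, 343, 202 and 120 RPKM, and Agt, the angiotensinogen gene that brain astrocytes express, had 136, 135, 145 and 164. Grn fell in rank below Agt in P8 4, while Agt stayed above Mdk, the midkine gene, without overlap.

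Cytokines were low as a class, with 67 of 189 genes at a mean of at least 1 RPKM and 3 at 100. The leaders were the chemokines Ccl4 and Ccl3, which microglia and macrophages make when activated. Ccl4 stood at 164, 278, 143 and 115 RPKM, and Ccl3 at 157, 227, 138 and 91.7. Mif, Spp1 and Il1b came next, and only Ccl4 and Ccl3 kept their order in all 4 libraries among the first 5 ranks. Without the length correction none of these 5 genes stayed among the first 5 of the class, and Dkk3 led by CPM. The gene models of Ccl4 and Ccl3 have 660 and 790 bases.

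G-protein coupled receptors had the smallest share of genes at a mean of at least 1 RPKM of any class but the 18 ranked microRNA genes: 123 of 1646 reached it and 1124 had no read. Ednrb, the endothelin B receptor, led at 290, 360, 358 and 337 RPKM. Gpr56 had 305 ± 41.1 RPKM and Gpr37l1, an astrocyte receptor, 286 ± 24.9 (SD, n = 4), and they changed places between libraries. Gabbr1, a subunit of the GABA-B receptor, had 258 ± 33.04 and Adcyap1r1, the PACAP receptor, 177 ± 15.03, and this pair did not overlap. P2ry12, the purinergic receptor that marks microglia, ranked 8 at 90.6, 105, 57.96 and 42.5 RPKM.

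The transmembrane receptors were led by immune genes. B2m, the light chain of class I antigens, stood at 401, 507, 259 and 256 RPKM. Tyrobp, the adaptor DAP12 of microglial receptors, stood at 355, 578, 220 and 184 (chromosome 7, 31198807 to 31202596, plus strand), and Cd83 at 217, 385, 184 and 114. Lrp1, a lipoprotein receptor that also binds ApoE, ranked 4 at 160, 160, 183 and 117 RPKM. By CPM, Lrp1 led the class. Its gene model has 14891 bases.

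Ttyh1, a chloride channel of glia, headed the ion channels at 733, 633, 627 and 703 RPKM and did not overlap with Ttyh3. Kcnj10, the Kir4.1 potassium channel with which astrocytes take up potassium, ranked 6 at 152, 116, 109 and 140 RPKM. Of the 44 ligand-dependent nuclear receptors, 27 reached 1 RPKM. Nr4a1, an immediate early gene, and Thra, the thyroid hormone receptor alpha, led at 141 ± 48.2 and 132 ± 31.7 RPKM (SD, n = 4). Nr4a1 stood at 111, 202, 155 and 94.5, and Thra at 157, 85.7, 138 and 147, so that each led in 2 libraries, and without P8 2 the mean of Thra was the higher. Exons of Thra and Nr1d1 overlap, so their reads may be partly shared.

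In the class of transcription regulators the table lists Rpl7, a ribosomal protein, and Calr, an endoplasmic reticulum chaperone, at ranks 1 and 2. Fos, the immediate early gene that cells switch on within minutes of stimulation, ranked 3 at 239, 395, 493 and 286 RPKM. Id3, an inhibitor of basic helix-loop-helix factors, ranked 11 at 175, 245, 220 and 199. Sox9, a defining transcription factor of astrocytes, stood at 20.3, 21.5, 30.6 and 22.7 RPKM and ranked 225. The translation regulators were led by the elongation factor Eef1a1 at 2333 ± 173 RPKM (SD, n = 4). They had the largest share of genes at 1 RPKM or more, with 86 of 91.

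By summed RPKM, the class listed as other held 48.6% ± 0.71, enzymes 18.7% ± 0.22, transporters 10.2% ± 0.41, transcription regulators 5.17% ± 0.45 and peptidases 3.16% ± 0.20 (SD, n = 4). Transmembrane receptors held 1.02%, 1.35%, 1.10% and 0.81% in P8 1 to P8 4. They were highest in P8 2 and lowest in P8 4. Cytokines held 0.43%, 0.59%, 0.48% and 0.36% with the same highest and lowest library.

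MicroRNA rows needed separate reading. The table lists 609 microRNA genes, of which 18 have 300 bases or more, and 24 of the 609 reached a mean of 50 RPKM. Reads of this kit come from fragments of long RNA, which do not resolve a mature microRNA of about the length of the sequences below. All 24 hairpins lay inside another gene of RefSeq, and 4 lay inside a spliced protein-coding transcript on the same strand. Mir5114 was the highest, at 5286, 5361, 5358 and 5668 RPKM, on a row of 61 bases. It lies in the transcript of Scd2, whose own mean was 1200 RPKM, so the row stood 4.52 times above the gene around it. Mir5121 (1014 RPKM) lies in Rpl13a, Mir677 (661 RPKM) in Atp5b and Mir3091 (624 RPKM) in Rps21. These rows are reported as uncertain: reads of the gene around them may have been counted. Mature sequences of the 4 highest rows follow (RefSeq, GRCm38.p6), shown because their level is the highest of the class. Capitals mark the seed, bases 2 to 8, which pairs with targets.
mmu-miR-5114, chr19:44303171-44303192, plus strand: aCUGGAGAcggaagcugcaaga
mmu-miR-5121, chr7:45126925-45126945, minus strand: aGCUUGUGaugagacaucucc
mmu-miR-677-5p, chr10:128085291-128085312, plus strand: uUCAGUGAugauuagcuucuga
mmu-miR-677-3p, chr10:128085335-128085360, plus strand: gAAGCCAGaugccguuccugagaagg
mmu-miR-3091-5p, chr2:180257547-180257567, plus strand: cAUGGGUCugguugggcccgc
mmu-miR-3091-3p, chr2:180257580-180257601, plus strand: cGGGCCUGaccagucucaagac
The 24 hairpins give 39 mature sequences with 39 different seeds, so no seed is shared among them.

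Most genes differed little between the 4 libraries. Over the 14609 genes at a mean of at least 1 CPM, the median SD of log2 CPM was 0.20, the median ratio of the highest to the lowest library was 1.37, and 63.3% of genes stayed within 1.5-fold. These values and all library patterns below use log2 CPM scaled by TMM, a normalization that sets the bulk of genes equal, with a prior count of 2. The biological coefficient of variation from edgeR was 24.65%, and 18.45% without P8 2. On principal components, the leading axis took up 64.9% of the variance and set P8 2 apart from the other three libraries. Without P8 2 the share was 52.9%. Fewer libraries leave fewer components, which raises the lowest share that the first can hold, so 52.9% and 64.9% are not directly comparable.

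P8 3 differed by gene length. The median deviation of its genes from their mean over the libraries was -0.54 (log2) for genes of 300 to 600 bases, -0.29 for 600 to 1000, -0.11 for 1000 to 2000 and 0.12 for genes of 8000 bases or more. The 221 genes under 300 bases broke this trend, with -0.08. The 78 ribosomal protein genes, most of them short, had a median deviation of -0.55 in P8 3. Apoe, Cst3, Fabp7 and Dbi, all with gene models under 1300 bases, were lowest in that library. Rpl38 (369 bases) stood at 717, 722, 363 and 793 RPKM, and Mt3, a metallothionein gene of 538 bases, at 1508, 1172, 642 and 1276. The part of this length trend in the low values of P8 3 given above was not tested.

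**Figure D2:**
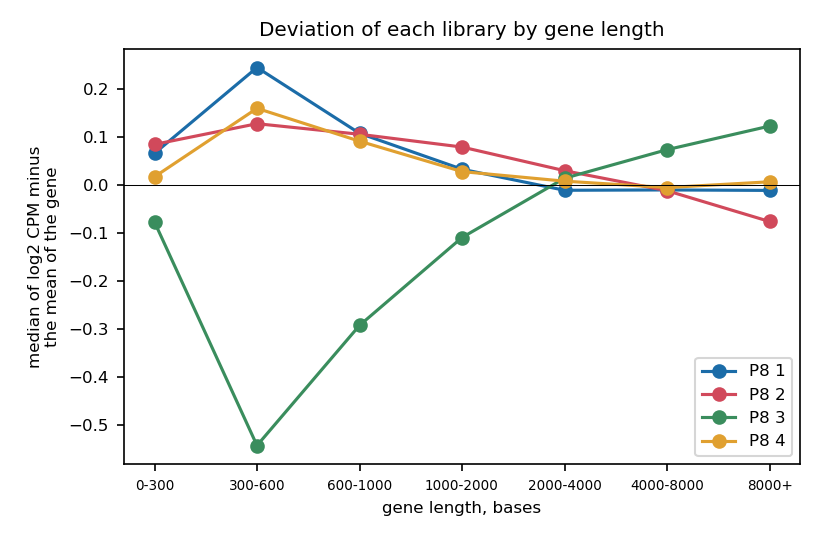
Median over genes of log2 CPM minus the mean of the gene, by gene length in bases, for each P8 library. P8 3 falls to -0.54 for genes of 300 to 600 bases and reaches 0.12 for the longest genes, while the other three libraries stay nearer to 0 in both length ranges. For genes under 300 bases P8 3 lies at -0.08.

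A gene was counted as apart where its highest or its lowest library differed from the next by at least 2-fold. In all, 929 genes (6.36%) were apart in this sense, 32 of them at both ends. Low values in P8 2 made up most of them, with 662 of 14609 genes (4.53%), followed by 111 genes high in P8 2 (0.76%). P8 4 was high in 52 genes (0.356%) and low in 57 (0.39%). P8 3 was high in 15 (0.103%) and low in 29 (0.199%), and P8 1 was high in 6 (0.0411%) and low in 29 (0.199%). The count of genes low in P8 2 ranged from 687 to 814 when any other library was left out. By any gap, 27.7% of the 14609 genes had their lowest value in P8 2, beside the 4.53% apart. Counts of list members that were merely highest or lowest in a library therefore have a larger background than counts of genes apart. That background was not worked out for the other libraries or for highest values. Such counts of list members are given below without a share of all genes, except for lowest values in P8 2.

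**Figure D3:**
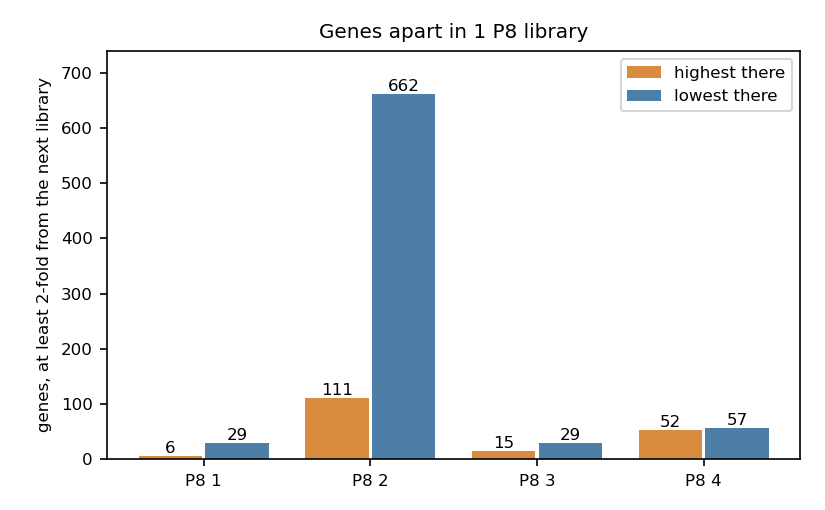
Number of genes at a mean of at least 1 CPM whose level in 1 P8 library was at least 2-fold above (orange) or below (blue) every other library. The bar for genes lowest in P8 2, at 662, is the tallest by far.

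Neuronal genes made up the deepest part of the P8 2 pattern. Kif5a, a kinesin motor of neuronal axons (chromosome 10, 126662755 to 126700136, minus strand), stood at 82.0, 3.99, 60.7 and 66.2 RPKM. P8 2 lay 13.6-fold below the next library on the scaled CPM, the largest such gap among genes low in P8 2 at a mean of at least 10 CPM. Next in size of gap were Iqsec3, Rph3a, Eef1a2, Gng4 and Ddn, and Iqsec3, Rph3a and Ddn encode synaptic proteins. Camk2a, the kinase of excitatory synapses, had 41.1, 1.68, 15.2 and 35.3 RPKM, and Nrgn, which encodes neurogranin, had 45.4, 1.78, 10.4 and 32.1. For both, P8 3 was intermediate while P8 1 and P8 4 were high. Those nearest to Camk2a by root mean square difference of centred log2 CPM over the 4 libraries were Kcnh3, Hpcal4, Cdk5r2, Nrsn1 and Ddn, at 0.11 to 0.21. Nearest profiles here and below were sought among 1315 genes at a mean of at least 5 CPM and an SD of at least 0.5. Within a fixed distance slightly above 0.21 lay 6 genes for Camk2a, 97 for Dcx, 125 for Barhl1 and 265 for Cx3cr1. There were 65 for Cldn5, 12 each for Pdgfra and Dcn, and 0 for Ttr, so nearness differs in meaning between seeds.

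Of the mature neuron list, 18 genes were matched and 17 had a mean of at least 1 CPM; 13 of these 17 were apart on the low side in P8 2, beside 4.53% of all genes. Its mean log2 CPM was 3.80, 1.79, 3.43 and 3.81. Rbfox3, the nuclear antigen NeuN, showed the pattern at 12.4, 2.39, 13.6 and 11.3 RPKM. The neuroblast list behaved likewise, with 13 of 20 genes apart on the low side in P8 2. Dcx, the doublecortin of migrating neurons, stood at 11.2, 2.51, 15.6 and 12.5 RPKM, and Neurod1 at 22.96, 5.35, 31.9 and 28.0. Here P8 3 was the highest library, and the nearest profiles to Dcx were Pak3, Gad1 and Neurod1, at 0.03 to 0.05. Left out in turn, P8 1, P8 3 and P8 4 changed the count to between 13 and 14 for mature neurons and between 12 and 14 for neuroblasts, beside 4.73% to 5.56% of all genes. In the cerebellar granule lineage 6 of 13 genes were apart low in P8 2. Barhl1, the seed of that lineage, had Cacna1b and Ppp2r2c among its 5 nearest profiles.

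By share of their genes, ion channels and G-protein coupled receptors stood highest among the classes in this pattern, a difference that was not tested. Of 217 ion channels at a mean of at least 1 CPM, 30 (13.8%) were apart on the low side in P8 2, and so were 15 of 164 G-protein coupled receptors (9.15%), beside 4.53% of all genes. Transporters stood at 5.55%, kinases at 5.09%, transcription regulators at 3.57% and enzymes at 2.79%. Kcnh3, a neuronal potassium channel, was the nearest profile to Camk2a and stood at 4.98, 0.19, 1.51 and 4.005 RPKM.

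**Figure D4:**
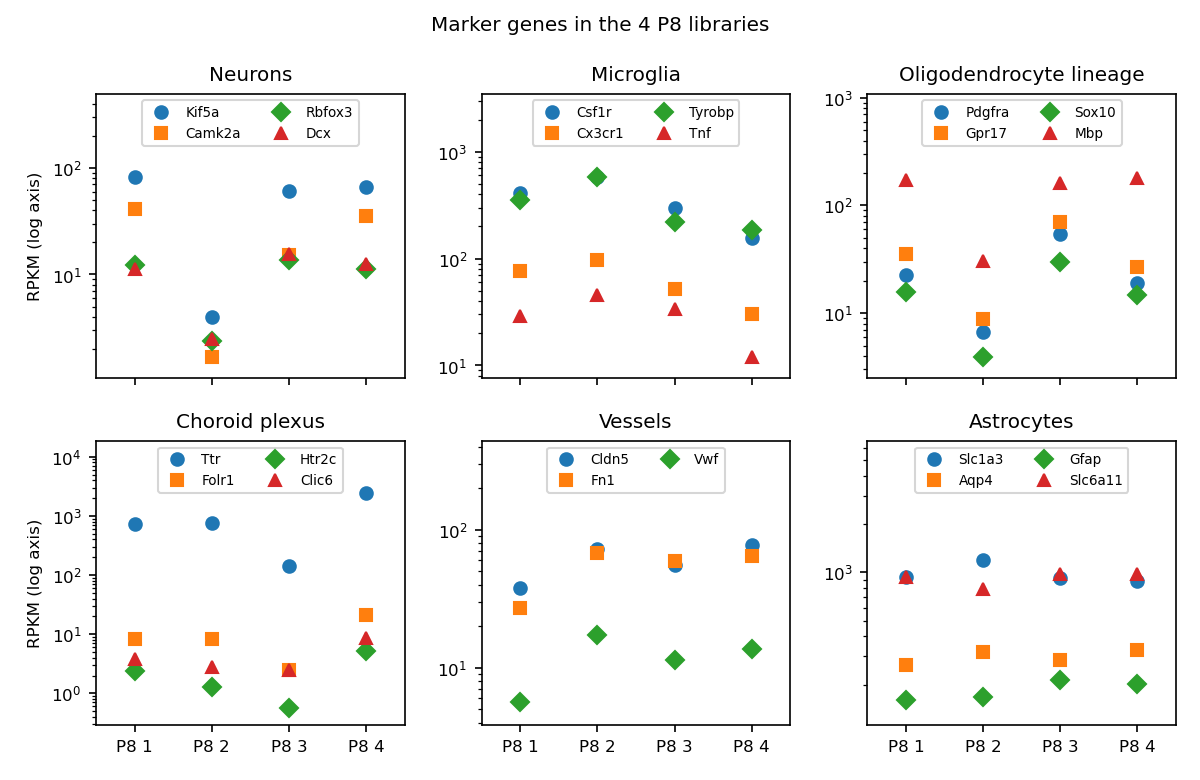
RPKM (log axis) of marker genes of 6 cell types in each P8 library. Neuronal genes drop in P8 2, and microglial genes peak in P8 2 and are lowest in P8 4. Pdgfra, Gpr17 and Sox10 peak in P8 3, choroid plexus genes peak in P8 4, and the astrocyte genes shown spread least of the genes plotted.

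Genes of myelin were low in P8 2 as well. Mbp, myelin basic protein, stood at 174, 30.2, 160 and 180 RPKM, and Mobp, another myelin protein gene, at 13.2, 3.11, 15.4 and 17.8. In both, P8 2 stood alone at the bottom. Of 15 myelin genes at a mean of at least 1 CPM, 12 were apart on the low side in P8 2, also when any other library was left out. Most genes of oligodendrocyte precursors were highest in P8 3 and lowest in P8 2. In the list of 17 genes, 11 were highest in P8 3. Lowest in P8 2 were 13 of the 17, beside 27.7% of all genes by any gap. By contrast, Ptprz1, Bcan, Cspg5 and Vcan were highest in P8 2 and lowest in P8 4 on the scaled CPM. Pdgfra, the growth factor receptor that defines them (chromosome 5, 75548316 to 75594229, plus strand), stood at 22.6, 6.62, 54.7 and 19.2 RPKM. Gpr17, a receptor of committed precursors, had 35.6, 8.79, 69.9 and 27.0, and Sox10, the transcription factor of the lineage, had 15.6, 3.92, 29.6 and 14.6. P8 3 was highest and P8 2 lowest for these 3 genes. Gpr17, Grik3, Pcdh15, Dscam and Sox10 were the nearest profiles to Pdgfra, at 0.11 to 0.19. Of the list, 8 genes were apart low in P8 2 (4.53% of all genes) and 2, Pdgfra and Cspg4, apart high in P8 3 (0.103% of all genes). Exon sequence of Gpr17 overlaps Lims2.

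Microglial genes took the opposite course, highest in P8 2 and lowest in P8 4. Of the 20 microglia genes, 19 were highest in P8 2 and 19 lowest in P8 4. The shares of all genes with these patterns by any gap were not worked out. The mean log2 CPM of the list was 7.77, 8.28, 7.09 and 6.54, a range of 3.35-fold. Cx3cr1, the fractalkine receptor (chromosome 9, 119957811 to 119977400, minus strand), stood at 76.9, 96.97, 51.9 and 30.5 RPKM, and Irf8, a transcription factor of myeloid cells, at 23.9, 28.8, 15.3 and 9.30. Both genes were ordered P8 2, P8 1, P8 3, P8 4. None of the list was apart by 2-fold with all 4 libraries in view, because P8 1 and P8 3 filled the middle. Without P8 1, 17 of 20 were apart high in P8 2, where the share of all genes was 2.51% in place of 0.76%. With P8 3 or P8 4 left out instead, 0 of 20 were apart high in P8 2. Without P8 3, 19 of 20 were apart low in P8 4, where the share of all genes was 1.91% in place of 0.39%. With P8 1 or P8 2 left out instead, 0 of 20 were apart low in P8 4. Slc41a3, Irf8, Susd3, Ikzf1 and Arhgap4 were nearest to Cx3cr1, at 0.01 to 0.04, out of the 265 genes close to it that were counted above.

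Genes of macrophages of the brain borders followed. Of 8 macrophage genes, all were highest in P8 2 and lowest in P8 4, with 4 apart high in P8 2 (0.76% of all genes) and 3 apart low in P8 4 (0.39%). Mrc1, the mannose receptor, stood at 54.9, 109, 59.4 and 29.7 RPKM. At a mean of at least 10 CPM, the genes with the largest gap above the next library in P8 2 were AI607873, Apold1, C3ar1, Birc3, Fcgr3 and Ccl9. C3ar1, the receptor for complement fragment C3a, stood at 13.7, 38.1, 15.1 and 7.26 RPKM, and Fcgr3, an Fc receptor, at 40.4, 106, 37.7 and 26.7. Icam1, the adhesion molecule of activated cells, stood at 27.0, 78.0, 33.3 and 20.04. In these 3 genes P8 2 was alone at the top.

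On the low side of P8 4, the largest gaps at a mean of at least 10 CPM belonged to Cybb, C5ar1, Zc3h12a, Tnf, Csf2rb and Itgal. Tnf, the cytokine tumour necrosis factor, stood at 29.0, 46.1, 33.9 and 11.99 RPKM. By class, 8 of 73 cytokines (11.0%) and 16 of 238 transmembrane receptors (6.72%) were apart high in P8 2, beside 0.76% of all genes. Of the same classes, 3 cytokines (4.11%) and 13 transmembrane receptors (5.46%) were apart low in P8 4, beside 0.39%.

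Promoters of these genes were searched for 8 short motifs on both strands, in 1 window a gene from 250 bases before to 50 after the RefSeq start. Beside GAGGAAGT and the shorter GGAAGT within it, they were the cyclic AMP element TGACGTCA, the REST element TTCAGCACC, the TATA box TATAAA, the SOX motif CATTGT, the RFX motif GTTGCC and the E-box CACGTG. All were chosen with the library pattern known. GAGGAAGT, the sequence that the myeloid factor PU.1 binds, was found in 9 of 81 windows of genes apart high in P8 2 (11.1%) and in 4 of 41 of genes apart low in P8 4 (9.76%). It was found in 2.88% of windows of genes at a mean of at least 1 CPM, in 3.28% of all windows in the table and in 0.70% of those of genes apart low in P8 2. Of the 9 genes, 3 are the near-identical copies Bcl2a1a, Bcl2a1b and Bcl2a1d. The shorter GGAAGT, contained in GAGGAAGT, was found in 50.6%, 48.8% and 27.1% of the first 3 sets, and in 9 of 15 windows of genes apart low in P8 1 (60%), a set in which GAGGAAGT was found once (6.67%). In genes apart high in P8 2, TATAAA was found in 21.0% of windows, beside 6.99% for genes at a mean of at least 1 CPM and 14.2% for all windows. It was found in 20.6% for genes apart high in P8 4 and in 5 of 15 windows (33.3%) for genes apart low in P8 1. For genes apart low in P8 2 and in P8 4 it was found in 6.5% and 9.76%. For genes apart high in P8 2 beside genes at a mean of at least 1 CPM, GTTGCC was found in 13.6% beside 12.9%. CATTGT was found in 6.17% beside 7.32% and CACGTG in 6.17% beside 9.91%. TGACGTCA was found in 1.23% beside 3.17%, and TTCAGCACC in none of the 81 windows beside 0.393%. In genes apart low in P8 2, TTCAGCACC was found in 9 of 431 windows (2.09%). It was in 1 of 20 for genes apart low in P8 3 and 1 of 41 for genes apart low in P8 4. GTTGCC was found in 9 of 14 windows of the ependymal list (64.3%), beside 0% to 36.4% in the other lists searched. These differences were not tested. A match is a description and does not show binding. The windows around the site of Pf4, a macrophage chemokine, and of Ctss and C1qc, a protease and a complement subunit of microglia, are shown because they carry the motif and were highest in P8 2 and lowest in P8 4 (RefSeq, GRCm38.p6). Capitals mark GAGGAAGT, which lies on the other strand in all 3 and reads ACTTCCTC here.
Pf4, chr5:90772345-90772464, plus strand: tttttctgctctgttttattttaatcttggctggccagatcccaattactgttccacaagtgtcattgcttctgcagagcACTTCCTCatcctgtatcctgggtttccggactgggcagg
Ctss, chr3:95526704-95526823, plus strand: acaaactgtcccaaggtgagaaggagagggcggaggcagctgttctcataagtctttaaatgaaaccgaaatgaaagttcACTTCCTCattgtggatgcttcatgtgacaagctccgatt
C1qc, chr4:136893070-136893164, minus strand: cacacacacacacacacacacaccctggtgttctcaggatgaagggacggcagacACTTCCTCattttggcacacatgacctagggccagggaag
The site begins 10 bases before the start in Pf4, 2 before in Ctss and 195 before in C1qc. Pf4 stood at 54.8, 122, 51.3 and 28.7 RPKM, Ctss at 257, 405, 188 and 133, and C1qc at 359, 558, 291 and 176. Pf4 was apart by 2-fold in P8 2, and Ctss and C1qc, the 2 of 14 microglia windows with the motif, were not.

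Immediate early genes, which respond to dissociation as well as to signals in the tissue, were mostly lowest in P8 4 too. Their list of 18 had a mean log2 CPM of 7.19, 7.70, 7.23 and 6.86, and 14 of them were lowest in P8 4. None of the 18 was apart in any library. The share of all genes lowest in P8 4 by any gap was not worked out. Zfp36, which degrades messages of cytokines, stood at 265, 303, 233 and 126 RPKM, and Junb at 160, 181, 188 and 91.6. Fos did not share the pattern, with its highest value in P8 3 and its lowest in P8 1. The part of microglial RNA in the levels of these genes was not tested.

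**Figure D5:**
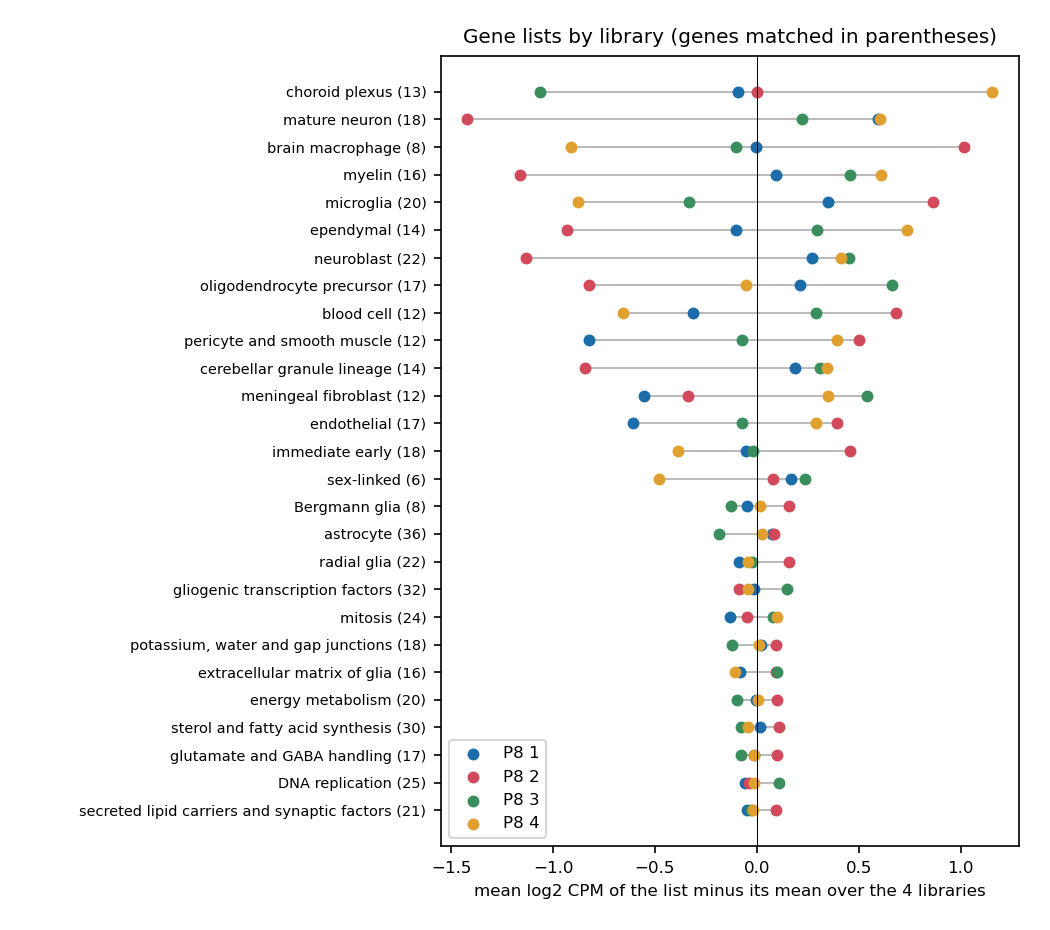
Mean log2 CPM (TMM-scaled) of each gene list in a P8 library, minus the mean of the list over the 4 libraries, with 1 point per library. Choroid plexus, mature neuron, macrophage, myelin and microglia lists spread over more than 1.7 log2 units, and the lists of astrocyte function spread over less than 0.3.

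Most genes of the choroid plexus, the tissue that makes cerebrospinal fluid, were highest in P8 4 and lowest in P8 3. Ttr stood at 733, 746, 144 and 2446 RPKM. Folr1, a folate receptor, stood at 8.27, 8.37, 2.44 and 21.4, and Htr2c, a serotonin receptor of the plexus, at 2.41, 1.27, 0.57 and 5.24. In each, P8 4 was at least 2-fold above the next library and P8 3 at least 2-fold below. Of 12 list members at a mean of at least 1 CPM, 8 were apart high in P8 4 (0.356% of all genes) and 6 apart low in P8 3 (0.199%). Folr1, Kl, Slc4a5, Sostdc1 and Htr2c were nearest to Ttr, at 0.35 to 0.49. At a mean of at least 10 CPM, the largest gaps above the next library in P8 4 belonged to Atp2b3, Ttr, Abca4, Aqp1, Sulf1 and Folr1. Genes of ciliated ependymal cells followed in part. Of 14, 12 were highest in P8 4 and 13 were lowest in P8 2, beside 27.7% of all genes by any gap. By 2-fold, 1 of the 14 was apart high in P8 4 (0.356% of all genes) and 4 were apart low in P8 2 (4.53%). Foxj1, the regulator of motile cilia, was highest in P8 3 instead, and stood at 10.4, 5.65, 18.2 and 17.6 RPKM.

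Vascular genes were lowest in P8 1. Of 17 endothelial genes, 16 had their lowest value there. Shares of all genes highest or lowest by any gap in the libraries of this paragraph were not worked out. Cldn5, the tight junction protein claudin 5, stood at 37.8, 72.6, 55.8 and 77.5 RPKM, and Vwf, von Willebrand factor, at 5.67, 17.4, 11.5 and 13.6. Fn1, which encodes fibronectin, stood at 27.1, 67.6, 59.9 and 64.2 (chromosome 1, 71632094 to 71699774, minus strand) and was among the 29 genes apart low in P8 1 (0.199% of all genes). Reck, Esam, Sdpr, Mcam and Podxl were nearest to Cldn5, at 0.05 to 0.06. Without P8 3, 7 of 17 endothelial genes were apart low in P8 1, beside 0.796% of all genes at that setting. With P8 2 or P8 4 left out instead, and with all 4 libraries, 0 of 17 were. Of 12 genes of meningeal fibroblasts, 8 were highest in P8 3, 3 in P8 4 and 1 in P8 2. Only Col1a1, a collagen gene, was apart high in P8 3 (0.103% of all genes), where it stood at 55.6 RPKM, beside 14.02 in P8 1, 13.9 in P8 2 and 24.8 in P8 4. Pericyte genes were lowest in P8 1 for 9 of 11, with Anpep and Kcnj8 apart low there (0.199% of all genes). All 6 blood cell genes at a mean of at least 1 CPM were lowest in P8 4, and none of them was apart. Abcc9 and Col6a1 were nearest to Dcn, a matrix gene of fibroblasts, at 0.18.

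Genes of the sex chromosomes varied too. Xist, the RNA that silences an X chromosome in female cells, stood at 11.9, 25.9, 30.8 and 33.6 RPKM. Eif2s3y, on the Y chromosome, stood at 18.5, 11.3, 12.7 and 6.16, and Ddx3y at 5.88, 3.26, 4.004 and 1.96. Xist was lowest in P8 1 and highest in P8 4, and both Y genes the reverse. Kdm5d and Uty, also on the Y chromosome, followed Eif2s3y in having their highest value in P8 1 and their lowest in P8 4. All 4 libraries carried both Xist and Y transcripts. Xist and its antisense partner Tsix cannot be told apart in reads without strand. The labels used here give no sex.

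A small block of genes was high in P8 1. Dynlt1c, Dynlt1e and Dynlt1f, which encode dynein light chains, and the pseudogenes Tmem181c-ps and Tmem181d-ps made up 5 of the 6 genes apart there (0.0411% of all genes). Dynlt1f stood at 13.3, 2.59, 0.72 and 2.16 RPKM, and Dynlt1c at 16.6, 3.22, 0.85 and 2.40 (chromosome 17, 6646959 to 6655064, minus strand). P8 3 was at the same time apart on the low side. Dynlt1c and Dynlt1e carry identical counts in every library, so these near-identical copies cannot be told apart and their levels are uncertain. Scd4, a desaturase paralog of Scd2, was high in P8 3 alone, at 0.80, 0.49, 16.6 and 0.95 RPKM, a gap of 16.9-fold to the next library (chromosome 19, 44407582 to 44421233, plus strand). Scd2 next to it stayed between 1081 and 1303 RPKM.

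Against these shifts, the mean levels of the lists of astrocyte function differed little between libraries. Single members of the astrocyte list varied about as much as a typical gene, with a median SD of log2 CPM of 0.19 beside 0.20 for all genes. In the 4 function lists named next it was 0.165, 0.165, 0.168 and 0.166. The mean of the astrocyte list ranged over 1.21-fold between libraries. The means of glutamate and GABA handling ranged over 1.13-fold, potassium, water and gap junctions over 1.16-fold, sterol and fatty acid synthesis over 1.14-fold and energy metabolism over 1.14-fold. None of the members of these 5 lists was apart in any library, beside 6.36% of all genes. Median levels of these lists were 87.7 to 266 RPKM, beside 2.58 RPKM for all ranked genes. The share of genes apart at a like level was not worked out, so 6.36% is not a matched background. Most of the spread in the astrocyte list lay in P8 3, where 25 of 36 genes had their lowest value, beside the length trend given above. The share of all genes lowest in P8 3 by any gap was not worked out, so this count has no background. Gliogenic transcription factors ranged over 1.18-fold and the extracellular matrix of glia over 1.15-fold. Exceptions in these 2 lists were Sox10 and Tnr, apart low in P8 2, and Fn1, apart low in P8 1. Ncan, which encodes neurocan, stood at 606, 619, 609 and 577 RPKM, and Bcan, which encodes brevican, at 611, 658, 673 and 579.

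RNA of the cell cycle lists differed little between libraries. The DNA replication list ranged over 1.12-fold and the mitosis list over 1.18-fold. Pcna, the sliding clamp of replication, stood at 141, 155, 153 and 159 RPKM, and Mki67, the Ki-67 proliferation marker, at 13.2, 13.1, 17.2 and 14.9. Radial glia genes ranged over 1.19-fold, with Vim at 206, 309, 265 and 264 RPKM. In the Bergmann glia list, Gdf10 stood out at 41.7, 93.0, 48.8 and 40.9, apart high in P8 2, and Npy, the gene of neuropeptide Y, was apart low there.

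Genes with the smallest SD at a mean of at least 100 CPM were Gnai3, Tsen34, Hif1a, Cct2, Tcp1, Atxn10, Uba2, Pcbp2, Csnk1a1 and Cab39. Gnai3, an inhibitory G-protein subunit, stood at 46.7, 45.5, 50.2 and 49.4 RPKM with an SD of 0.01 (log2, scaled CPM). Hif1a, the oxygen-sensing transcription factor, stood at 29.9, 28.6, 32.97 and 31.98 with an SD of 0.02. At the other end stood Ddn at 13.2, 0.37, 4.55 and 11.0 RPKM, with an SD of 2.33, and Scd4, with 2.24.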

How the data were processed

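Counts, CPM and RPKM of 4 P8 libraries were read from the table that the authors deposited. Per the file headers the authors give whole-number counts per gene, CPM and RPKM. The deposited CPM equalled count over column total and the deposited RPKM equalled CPM over gene length in kilobases, to a relative difference of at most 5e-12 and 8.4e-12. Total counts were 63131890 to 94308235. Per the submitters' processing notes, TopHat was among the tools and mm9 was the genome build. Which counter and annotation were used is not stated in the sources at hand. The kit (TruSeq RNA v2) does not mark strand, per the labels' protocols.

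Levels are mean RPKM ± SD over 4 libraries. Library patterns used edgeR 4.0.16 (R 4.3.3) TMM sizes within P8, prior count 2, mean CPM of at least 1 and a 2-fold gap. No group contrast and no test between conditions was made; Dixon's criterion was applied within the 4 libraries to mark single values. The step that finds genes apart was tested on simulated counts. Their spread between libraries was set below the coefficient of variation of 24.65% found here, so that test gives no error rate for these libraries. Named genes are the 15 highest of all genes, the 5 highest per class, the 4 highest per list, the 6 largest gaps per pattern, the 10 with the largest and smallest SD and the 5 nearest to each of 10 seed genes. Further genes were named after their values were seen, among them Slc6a11, Glul, Aldoc, Fads2, Id3, Kcnj10, P2ry12, Mlc1, Atp1b2, Slc1a2, Mt3, Rpl38, Sox9, Icam1, Cspg4 and Gdf10. The members, lists and rules were chosen with earlier results of these data known. Gene positions are spans of GENCODE M1 on NCBIM37, the assembly that mm9 stands for; 99 of 99 looked up were matched. Of the list members, those whose symbol is in the table were used. Alternatives were DESeq2 1.42.0 size factors, column totals, CPM or TPM for RPKM, other filters and folds, and leaving out each library. Some genes that the naming rule covers are not reported here.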

Additional observations from a re-analysis of the deposited data

Results flagged for a closer look

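Of 126 values examined (99 genes and 27 lists), 14 had a library whose gap to its nearest neighbour, over the whole range of the 4 values on the log2 scale, was above Dixon's 95% critical value. Chance flags about 1 in 20 groups of values that were not selected. Some of the 99 genes, Kif5a and Scd4 among them, were chosen for a library that stood apart or for a large SD, so that rate does not hold for them and the values are a description.

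In P8 2, 8 values stood alone at the bottom. Kif5a was at 3.99 RPKM, Rbfox3 at 2.39, Dcx at 2.51, Neurod1 at 5.35, Mobp at 3.11 and Mbp at 30.2. The neuroblast list was at a mean log2 CPM of 2.60 and the cerebellar granule lineage list at 3.61. These lists share Neurod1, and the genes share the library, so the 8 values are not separate observations.

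In P8 3, 4 genes were alone at the bottom, all with gene models under 1300 bases. Apoe was at 6019 RPKM, Fabp7 at 2353, Dbi at 937 and Rpl38 at 363. The median deviation of P8 3 was -0.54 (log2) for genes of 300 to 600 bases, where Rpl38 falls. It was -0.29 for 600 to 1000 bases, where Fabp7 and Dbi fall, and -0.11 for 1000 to 2000, where Apoe falls. The part of this trend in the 4 values was not tested. Scd4 was alone at the top in P8 3, at 16.6 RPKM. In P8 4, Lrp1 was alone at the bottom, at 117 RPKM.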

How the results depend on the processing

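No paired analysis was possible because only 1 group is described. Counts of expressed genes, the share of the 100 highest and the class leaders held when a library was left out (13162 to 13287 genes, 24.1% to 25.8%, 15 to 16 of 16 leaders and 72 to 75 of 77 leading genes). By CPM in place of RPKM, the 100 highest held 18.7%, and 9 leaders and 43 leading genes were shared.

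Genes apart, highest then lowest in P8 1 to P8 4, moved with both the threshold and the filter on low counts. At 1.5-fold they were 29 and 205, 561 and 1125, 131 and 280, and 141 and 331. At 4-fold they were 3 and 0, 1 and 173, 1 and 5, and 7 and 1. With no filter they were 189 and 211, 389 and 1171, 295 and 185, and 492 and 213. At a mean CPM of at least 10 they were 4 lowest in P8 1, 54 and 280, 5 and 16, and 10 and 30. With column totals, 23 were highest in P8 3. Leaving out another library, which leaves fewer values to differ from, gave 9 to 60 highest and 31 to 116 lowest in P8 1, 134 to 367 and 687 to 814 in P8 2, 23 to 65 and 66 to 81 in P8 3, and 97 to 119 and 53 to 279 in P8 4. All 662 genes low in P8 2 were kept under column totals and under DESeq2 sizes.

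The first component held 65.5% by column totals, 64.8% at a mean CPM of at least 10, and 52.9% to 78.1% with a library left out, where fewer components share the variance. Column totals in place of TMM moved the median gene by -0.08 (log2) in P8 2 and 0.08 in P8 3. Of 189 list ranges under alternatives, 155 moved by less than 1 SD. Of 396 gene means without a library, 13 moved over 1.5 times. Without P8 4 they were Ttr at 541 RPKM, Folr1 at 6.36, Kl at 0.543 and Htr2c at 1.42. Without P8 3 they were Pdgfra at 16.1, Col1a1 at 17.6 and Scd4 at 0.746, and without P8 2 Fcgr3 at 34.9 and C3ar1 at 12.02. Without P8 1 they were Nrgn at 14.8, Dynlt1c at 2.15, Dynlt1f at 1.82 and Tmem181c-ps at 0.671. Depth limits levels under 0.0475 CPM.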
